A study of Mus musculus with 3 samples.

Results

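The Ly6 family encodes small surface proteins that share a cysteine-rich LU domain and are mostly held in the membrane by a GPI anchor. The 7 members described here are Ly6a, Ly6c1, Ly6c2, Ly6e, Ly6h, Lynx1 and Cd59a. They were found by symbol among the 27999 rows of each count table, where each matched 1 row. The members were chosen by earlier results on these same counts, above all by the lower levels of Ly6a and Ly6c1 in cycling tumour cells, so those levels are described and not tested. The other comparisons were chosen with such results known too, so their tests are no separate evidence. The question here was in which cells of 3 mouse brain tumours they were read, and with which cell states they went.

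The members have different roles. Ly6a, known as Sca-1, marks haematopoietic stem and progenitor cells and endothelium, and interferon is known to raise it. Ly6c1 and Ly6c2 encode the Ly6C antigen, with Ly6c1 known from brain endothelium and Ly6c2 from inflammatory monocytes and memory CD8 T cells. Ly6e is an interferon-stimulated gene that restricts coronaviruses. Ly6h and Lynx1 are neuronal members that bind nicotinic acetylcholine receptors and temper their activity. Cd59a blocks the last step of the complement membrane attack complex.

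All 3 tumours carried the same constructs, H3f3aK27M PdgfraD842V Trp53R270H, in mice heterozygous for the reporter allele Gt(ROSA)26Sortm4 of Luo, which carries ACTB-tdTomato and -EGFP, on a B6.129(Cg) background. The brains had been electroporated on postnatal day 1 or 2 with MADR constructs, which insert transgenes at a chosen locus, and the gliomas grew over 3 to 5 months. Collection was on postnatal day 150 for tumour 1, 106 for tumour 2 and 149 for tumour 4. GFP+ cells were sorted, and their transcripts were read from the 3′ end in 10x Genomics droplets. The promoter of the constructs and the number of animals behind a library are not given in the sources used here. There is 1 genotype and no untreated or tumour-free sample, so every comparison below is between cells of the same tumours. The animal, its age and its library differ together between tumours and cannot be separated.

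Of 3386, 1632 and 4624 barcodes in tumours 1, 2 and 4, 3360, 1548 and 4377 were kept as cells, with 11941.5, 7783 and 9494 UMIs in the median cell. A UMI is 1 counted transcript molecule. The kept libraries shared 5 to 20 barcodes per pair. Clusters, made without any gene of the family, were mostly neural: 3191, 1056 and 4295 cells. Tumours 1 and 4 were dominated by clusters with markers of oligodendrocyte precursor cells (OPC-like, 66.2% and 74.8% of cells), and tumour 2 was not (9.37%). The GFP+ sort also held cells with the markers of other lineages: 169, 396 and 82 myeloid-like cells, and in tumour 2 also 20 T or NK cell-like, 14 mural-like and 62 cells of a mixed cluster with endothelial, myeloid and oligodendrocyte markers. Tumour 2 thus stood apart in its makeup.

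Of the members, 6 lie together on chromosome 15 of the GRCm38 build, in this order: Lynx1 (chr15:74747852-74753046, minus strand), Ly6e (chr15:74955051-74959905, plus), Ly6a (chr15:74994877-74998031, minus), Ly6c1 (chr15:75044018-75048830, minus), Ly6c2 (chr15:75108158-75111970, minus) and Ly6h (chr15:75551268-75567255, minus). Cd59a lies on chromosome 2 (chr2:104095801-104115354, plus). Ly6c1 and Ly6c2 are near copies. Of the 98-base words (the length of the transcript read) in the last 500 bases of their annotated transcripts, 11.5% of those of Ly6c1 and 17.2% of those of Ly6c2 also occur in another gene, chiefly the other of the pair. Reads from there do not tell the genes apart, so the counts of the pair are uncertain. For the other 5 members no such word was shared.

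For Ly6a, Ly6e, Ly6h and Lynx1 the reference used held no upstream sequence, so these members were not searched. The upstream sequences shown are those of Ly6c1, Ly6c2 and Cd59a. They are the 250 bases before the start of the gene in RefSeq on GRCm38.p6, on the coding strand. Ly6c1 spans chr15:75048838-75049087 (minus), Ly6c2 chr15:75111972-75112221 (minus) and Cd59a chr2:104095551-104095800 (plus). Capitals mark the core of the interferon-stimulated response element, searched as GAAA, any 2 bases and GAAA.
Ly6c1: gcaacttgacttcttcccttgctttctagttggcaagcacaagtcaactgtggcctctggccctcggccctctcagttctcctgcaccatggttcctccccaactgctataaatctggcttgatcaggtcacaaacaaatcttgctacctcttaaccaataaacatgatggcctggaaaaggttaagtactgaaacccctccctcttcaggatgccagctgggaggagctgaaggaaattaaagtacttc
Ly6c2: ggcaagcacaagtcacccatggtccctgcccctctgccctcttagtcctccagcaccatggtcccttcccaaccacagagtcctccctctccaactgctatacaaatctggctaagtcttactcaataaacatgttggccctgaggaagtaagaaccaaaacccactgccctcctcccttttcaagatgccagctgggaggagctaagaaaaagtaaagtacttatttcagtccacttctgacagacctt
Cd59a: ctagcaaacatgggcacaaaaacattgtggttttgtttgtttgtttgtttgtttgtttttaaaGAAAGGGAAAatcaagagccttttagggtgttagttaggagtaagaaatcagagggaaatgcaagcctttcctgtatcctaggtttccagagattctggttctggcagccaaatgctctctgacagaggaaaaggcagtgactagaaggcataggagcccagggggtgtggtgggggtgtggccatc
The Ly6c1 and Ly6c2 windows were identical at 164 of 216 aligned bases (75.9%), with 68 gap positions. Searched on both strands, the response element matched once in Cd59a, 187 bases before the start, and in neither of the pair. The letters TTCNNNGAA of the interferon gamma activated site matched in none of the 3. Of 27025 genes with such a window, 3.46% hold the first motif and 8.13% the second, in any of their windows. For each member only the window nearest its annotated start was searched. A match is only a run of letters, and the lack of one speaks of this window alone.

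Across whole tumours, the most frequent member was Ly6e, with 318, 474 and 354 CPM, the UMIs of a gene scaled to a total of 1000000 UMIs, in tumours 1, 2 and 4. A 3′ kit counts 1 end per transcript, so these levels are not divided by length. Ly6a had nearly the same level in each tumour, 136.9, 135.1 and 137.5 CPM (136.5 ± 1.23, SD, n = 3), and the exact 95% Poisson intervals of the 3 overlapped. In neural cells alone Ly6a had 127.7, 128.6 and 138.8 CPM, and there the interval of tumour 4 lay above the other 2. Such intervals cover counting error only. No other member was as even.

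Ly6h had 105, 23.3 and 61.0 CPM and Lynx1 6.16, 2.70 and 11.8 CPM in tumours 1, 2 and 4. Both of these neuronal members were lowest in tumour 2, with intervals that did not overlap those of the other tumours. Ly6c1 was highest there, with 27.8, 56.0 and 19.99 CPM. Cd59a had 13.9, 21.4 and 2.13 CPM, a 10.0-fold range over the tumours and the widest of the members other than Ly6c2. Ly6c2 was scarce, with 157, 37 and 1 UMI in all, or 3.34, 2.49 and 0.0192 CPM.

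**Figure D1:**
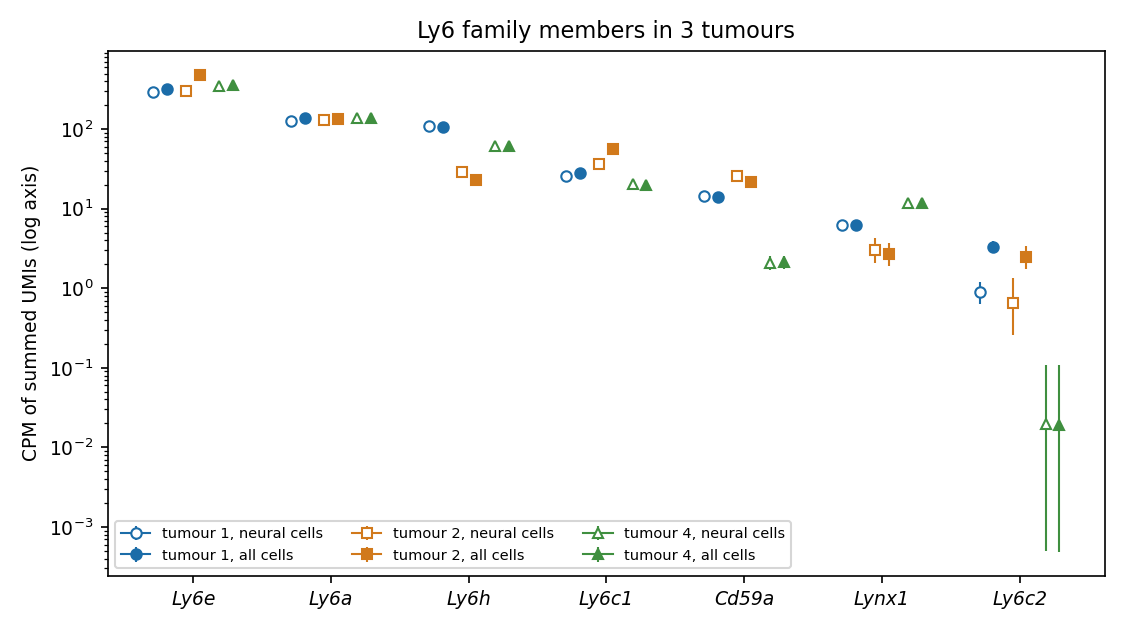
Level of each member in each tumour, as CPM of summed UMIs on a log axis, in all kept cells (filled) and in neural cells alone (open). Points are tumours and bars are exact 95% Poisson intervals. The 3 points of Ly6a lie together, and those of Cd59a and Ly6c2 are spread the most.

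In tumour 2, Ly6c1 had 36.6 CPM in neural cells alone, against 56.0 CPM in all cells. Ly6e had 304 CPM in neural cells of tumour 2, against 474 CPM in all of its cells. In tumours 1 and 4 the neural cells had 25.4 and 20.2 CPM of Ly6c1, against 27.8 and 19.99 CPM in all cells. In neural cells alone tumour 2 was no longer the highest for Ly6e, with 291 and 351 CPM in tumours 1 and 4. It was still the highest for Ly6c1, with intervals that did not overlap. In summed counts, fewer cells with a transcript and less transcript per cell cannot be told apart, so the share of cells with a UMI is given where it helps. With each cell thinned to 2000 UMIs, Ly6e was read in 40.7%, 47.8% and 46.3% of cells and Ly6a in 13.6%, 12.5% and 15.4%. At the same 2000 UMIs, Ly6a was read in 0 of 14 mural-like cells of tumour 2, whose median was 3802 UMIs.

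Among the groups of cells described here, the endothelial-marker cells of tumour 2 had the highest levels of Ly6a and Ly6c1, in very few cells. A cell was set aside when at least 10 of its 2000 UMIs came from 15 endothelial genes, a limit chosen after the counts had been seen. It found 1, 11 and 1 cells in tumours 1, 2 and 4, while 5, 1 and 1 cells had 5 to 9 such UMIs. The list held no gene of the family. The 11 cells of tumour 2 held 379 Ly6c1 UMIs (3647 CPM) and 327 Ly6a UMIs (3147 CPM), and all 11 held both genes. The lowest had 5 Ly6c1 UMIs, the median 23 and the highest 145. Ly6e stood at 1780.2 CPM and Cd59a at 135 CPM in them, and Ly6h had 0 UMIs, which allows 28.9 CPM. The endothelial-marker cell of tumour 4 held 10 Ly6a, 8 Ly6c1 and 14 Ly6e UMIs, and that of tumour 1 held 9 Ly6a, 8 Ly6e and no Ly6c1 UMI. Limits of 5 and 20 UMIs gave 12 and 9 cells in tumour 2, with 3211 and 4590 CPM of Ly6c1. In tumour 2, the 5 cells richest in Ly6c1 held 36.9% of its UMIs.

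The 14 mural-like cells of tumour 2, the contractile coat of vessels, had 0 UMIs of Ly6a and of Ly6c1, which allows up to 42.8 CPM. They had 542 CPM of Ly6e and 114 CPM of Cd59a from 8 UMIs of Cd59a. Ly6a and Ly6c1 were therefore not detectable in these mural-like cells at this depth, and both were abundant in the endothelial-marker cells of the same library.

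Most Ly6c2 UMIs lay in immune cells, of different kinds in different tumours. In tumour 1, 118 of its 157 UMIs (75.2%) lay in 15 of the 169 myeloid-like cells, with 28 in the highest cell. In tumour 2, 26 of its 37 UMIs (70.3%) lay in 5 of the 20 T or NK cell-like cells, where the level was 188 CPM, and Ly6c1 had 0 UMIs in those cells. The myeloid-like cells of tumours 2 and 4 held 1 and 0 Ly6c2 UMIs. T and NK cell markers summed to 104 CPM in the myeloid-like cells of tumour 1, against 6.13 and 5.34 CPM in those of tumours 2 and 4. Their part in the Ly6c2 of tumour 1 was not tested.

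Among myeloid-like cells the family was carried by Ly6e. It had 741, 1009.5 and 536 CPM in myeloid-like cells of tumours 1, 2 and 4, against 340.1, 277 and 381 CPM in non-cycling neural cells. The groups did not overlap, but the difference of 1.59 ± 0.45 on the log2 scale (SE) did not pass edgeR's quasi-likelihood test, in which each tumour was a block (Benjamini-Hochberg adjusted p over all genes = 0.0918). It passed with DESeq2 (adjusted p = 0.00614) and in edgeR without tumour 2 (1.01, adjusted p = 1.65e-05). The fit without tumour 2 borrows most of its spread from all genes. All 14 microglial markers were higher in the myeloid-like cells in the edgeR fit of all tumours. They summed to 12288, 33332 and 19440 CPM in those cells, against 179, 956 and 51.1 CPM in non-cycling neural cells. Such markers had named the myeloid-like clusters, so the naming fixed their direction and the count is no separate evidence. The neural values were highest in tumour 2, and what share of them came from free RNA or from doublets was not tested.

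Ly6a differed between the myeloid-like cells of the tumours. It had 280.1, 65.4 and 64.0 CPM in myeloid-like cells and 177, 130.2 and 173 CPM in non-cycling neural cells (log2 difference -0.12, adjusted p = 0.859, edgeR). Ly6c1 followed it, with 64.3, 10.6 and 8.54 CPM in myeloid-like cells and 35.9, 34.6 and 26.0 CPM in non-cycling neural cells (-0.24, adjusted p = 0.768). Tumour 1 was the high one for both genes, as for Ly6c2. The directions thus differed between tumours, and n is 3 tumours.

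Ly6h had 54.8, 3.75 and 36.3 CPM in myeloid-like cells and 120.1, 30.4 and 62.1 CPM in non-cycling neural cells, lower in every tumour. With edgeR the difference was -1.12 ± 0.34 (adjusted p = 0.104), and -0.79 (adjusted p = 0.0039) without tumour 2. The fit without tumour 2 borrows most of its spread from all genes. Cd59a had 5.27, 4.77 and 4.27 CPM in myeloid-like cells, against 18.8, 27.1 and 2.69 CPM in non-cycling neural cells (-1.16, adjusted p = 0.237). Lynx1 had 5.62, 0.341 and 5.34 CPM in myeloid-like cells, against 7.04, 3.03 and 14.8 CPM in non-cycling neural cells (-0.86, adjusted p = 0.300). None of the 6 members tested was called by edgeR, 2 of them (Ly6e and Ly6h) were under 0.05 before adjustment and DESeq2 called 1 (Ly6e), where 9.6% of 12463 genes were called, 8.92% higher and 0.674% lower. The median difference of the members was -0.55, against -0.13 over all genes. Scaled by library size alone, the median over all genes was -0.58 and the members shifted with it, with 1.16 for Ly6e, -0.59 for Ly6a and -1.55 for Ly6h, and no sign changed.

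Within the neural compartment the levels differed between classes. In OPC-like cells Ly6a had 131, 36.3 and 160.1 CPM and Ly6c1 28.4, 9.08 and 25.5 CPM in tumours 1, 2 and 4, so the OPC-like cells of tumour 2 were the low ones for both. The oligodendrocyte-like cells of tumours 2 and 4 had 156 and 214 CPM of Ly6a and 44.4 and 43.0 CPM of Ly6c1. In tumour 2 this class held both extremes of the neural clusters of at least 20 cells: a cluster of 177 cells had 264 CPM of Ly6a and 86.6 CPM of Ly6c1, and a cluster of 87 cells had 8.04 and 3.22 CPM. The other 2 clusters of the class had 141 and 30.6 CPM of Ly6a. Astrocyte-like cells of tumours 1 and 2 had 401 and 200.3 CPM of Ly6a, with 66.7 and 52.4 CPM of Ly6c1. In tumour 1 they were the highest class for Ly6a, above the myeloid-like cells (280.1 CPM) and the OPC-like cells (131 CPM), with intervals that did not overlap. In tumour 2, the intervals of the T or NK cell-like (209.8 CPM) and astrocyte-like cells overlapped for Ly6a, so their order is not set. The astrocyte-like cells had median mitochondrial shares of 9.34% and 10.6% of UMIs, against 4.67% and 7.57% in OPC-like cells of the same tumours. In tumour 1 their cluster also had the highest mural and endothelial marker levels of that tumour's clusters, with the mural marker Rgs5 among its top genes. It held the endothelial-marker cell of tumour 1, with 9 of the 451 Ly6a UMIs of the cluster. The part of mitochondrial share and of vascular cells in the Ly6a of astrocyte-like cells was not tested.

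For Ly6h the classes stood in another order than for Ly6a. Of the classes of tumour 2, the neuroblast-like cells were the highest for Ly6h, at 172 CPM from 45 UMIs, above OPC-like cells of that tumour at 71.7 CPM. Committed OPC-like cells there had 43.4 CPM, oligodendrocyte-like cells 6.84 CPM and myeloid-like cells 3.75 CPM. The order from precursor to oligodendrocyte-like was the same in tumour 4, with 65.7 CPM in OPC-like and 27 CPM in oligodendrocyte-like cells. Lynx1 was low in each class with at least 20 cells, between 0 and 14.7 CPM, and had 0 UMIs in the neuroblast-like cells. Cd59a was high in the oligodendrocyte-like cells of tumour 2, at 40.9 CPM against 8.17 CPM in its OPC-like cells. In tumour 4 the same classes had 7.36 CPM, from 6 UMIs, and 2.03 CPM.

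**Figure D2:**
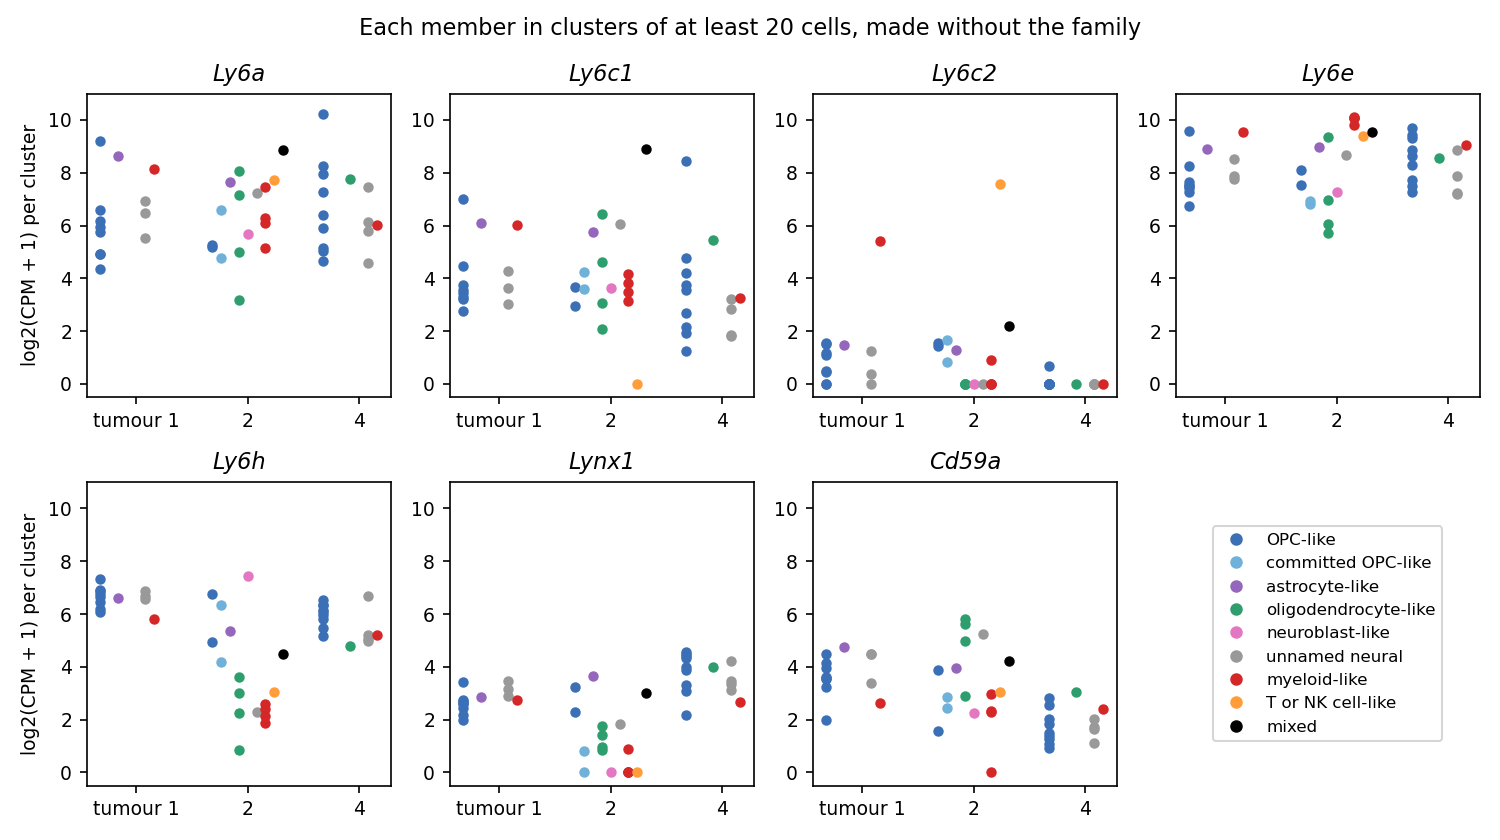
Level of each member in every cluster of at least 20 cells, as log2(CPM + 1), by tumour, with clusters coloured by class. Each point is 1 of 45 clusters. Ly6a and Ly6c1 reach their highest values in 1 OPC-like cluster of tumour 4, in the mixed cluster of tumour 2 and in 1 OPC-like cluster of tumour 1, and Ly6c2 is highest in the T or NK cell-like and 1 myeloid-like cluster.

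Clusters also differed widely. Over the 12, 11 and 14 neural clusters of at least 20 cells in tumours 1, 2 and 4, Ly6a ranged from 19.4 to 584 CPM, from 8.04 to 264 CPM and from 22.7 to 1196 CPM. Ly6c1 ranged from 5.75 to 127 CPM, from 3.22 to 86.6 CPM and from 1.41 to 345 CPM. In each tumour 1 cluster was highest for Ly6a, Ly6c1 and Ly6e alike. It held 420 cells in tumour 1, 177 in tumour 2, where it was oligodendrocyte-like, and 168 in tumour 4. In tumour 4, its 1196 CPM of Ly6a stood against 308 CPM in the next cluster. The cluster of 420 cells in tumour 1 was also the highest of these for Ly6h, at 159 CPM.

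Ly6a, Ly6c1, Ly6e and Lynx1 rose with the interferon response of neural cells. Each non-cycling neural cell was scored by its UMIs of 56 interferon-response rows, none of them of the family, and the 25% of cells with the highest score were set against the 25% with the lowest in the same tumour (320, 192 and 599 cells a side). Ly6a had 567, 410.2 and 593 CPM in interferon-high cells, against 34.1, 63.2 and 16.7 CPM in interferon-low cells of tumours 1, 2 and 4. The groups were far apart in every tumour. The log2 difference was 4.0 ± 0.42 (SE, n = 3 tumours, adjusted p = 0.00105, edgeR with tumour as a block).

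Ly6c1 rose in the same cells, with 116, 119 and 106 CPM in interferon-high cells, against 8.33, 8.40 and 2.81 CPM in interferon-low cells (4.32 ± 0.31, adjusted p = 0.000148, edgeR). The high levels were nearly equal in the 3 tumours. Ly6e, itself a classical interferon-stimulated gene, had 775, 826 and 892 CPM in interferon-high cells, against 147, 65.2 and 115 CPM in interferon-low cells (3.00 ± 0.25, adjusted p = 0.000358). B2m, the light chain of MHC class I and an interferon-responsive reference, rose by 1.08 ± 0.15 (adjusted p = 0.0057). Among score genes, which were left out of the test, Bst2 had 1712, 1019 and 3477 CPM in interferon-high cells, against 227, 128 and 442 CPM in interferon-low cells. Irf7, a factor of the type I response, had 278, 754 and 567 CPM in interferon-high cells, against 31.2, 126 and 75.4 CPM in interferon-low cells. These score genes show how far apart the groups are, and the score fixed their direction. Their ratios were smaller than that of Ly6a in tumours 1 and 4.

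Lynx1 had 9.89, 7.36 and 24.5 CPM in interferon-high cells, against 4.57, 0.988 and 7.32 CPM in interferon-low cells. It was higher in every tumour and passed the test (1.66 ± 0.31, adjusted p = 0.0211, edgeR), though tumour 2 gave only 2 UMIs on the low side. The call was lost without tumour 1 (adjusted p = 0.0700), without tumour 4 (0.215) and with the upper and lower 50% of cells (0.88, 0.0518). Ly6h had 166, 32.3 and 105.2 CPM in interferon-high cells, against 102, 27.7 and 35.7 CPM in interferon-low cells, and did not pass (0.91 ± 0.25, adjusted p = 0.0854). Without tumour 2 it did (1.14, adjusted p = 2.5e-07), in a fit that borrows most of its spread from all genes. Cd59a had 17.7, 52.1 and 3.42 CPM in interferon-high cells, against 16.4, 17.8 and 2.20 CPM in interferon-low cells, with the widest gap in tumour 2 (0.79 ± 0.31, adjusted p = 0.191, and 0.29 with adjusted p = 0.649 without tumour 2). Ly6c2 did not pass the filter on low counts, with 10, 1 and 1 UMIs in interferon-high cells and 1, 0 and 0 in interferon-low cells.

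Of the 6 members tested 4 rose and none fell, where 4.01% of 11409 genes were called, 3.24% higher and 0.771% lower. The members and this comparison were chosen with earlier results of these data known, so the count is a description. The median log2 difference of the members was 2.33, against -0.01 over all genes. Without tumour as a block, Ly6a (adjusted p = 0.106), Ly6c1 (0.0842), Ly6e (0.104) and Lynx1 (0.999) were not called by edgeR, with differences of similar size.

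The shape of the climb over the score differed between tumours. In tumour 4, Ly6a had 17.1, 61.3, 155 and 593 CPM from the lowest to the highest of 4 equal parts, higher in each part than in the one before. In tumour 1 the levels were 34.0, 41.8, 110.0 and 567 CPM. In tumour 2 they were 63.1, 45.1, 41.0 and 410.2 CPM, so that the rise there lay wholly in the highest part. In CPM, Ly6c1 had its widest step into the highest part, with 12.5 and 106 CPM in the last 2 parts of tumour 4. Ly6e climbed through all 4 parts, with 65.1, 111, 184 and 826 CPM in tumour 2 and 115.5, 256, 444 and 892 CPM in tumour 4.

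**Figure D3:**
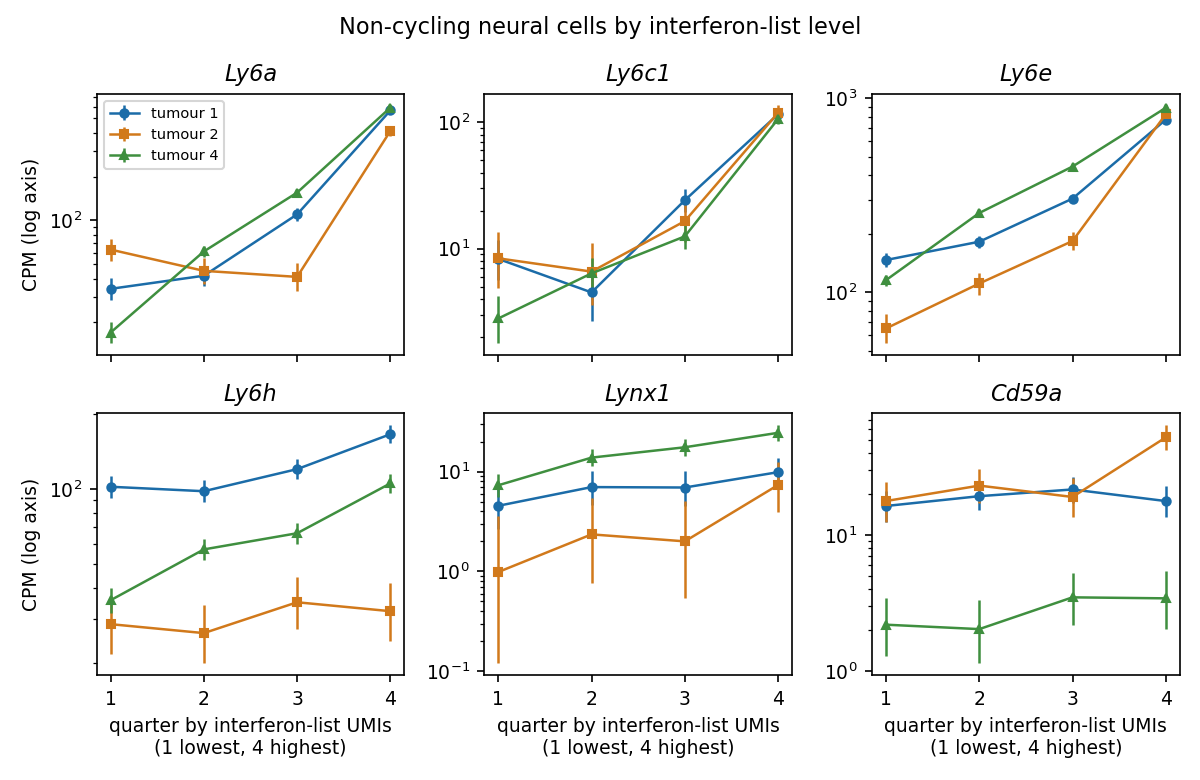
CPM of 6 members (log axis) in 4 equal parts of the non-cycling neural cells of each tumour, ordered by UMIs of the interferon-response rows. Points are tumours with exact 95% Poisson intervals. Ly6c1 steps up into the highest part in each tumour and Ly6a in tumour 2, Ly6e climbs throughout, as Ly6a does in tumour 4, and Cd59a stays between 16.3 and 21.6 CPM in tumour 1.

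Other measures moved with the score. Interferon-high cells had median mitochondrial shares of 5.06%, 10.6% and 6.89%, against 4.58%, 5.31% and 4.13% in interferon-low cells, and fewer UMIs (medians 9106, 7349.5 and 7207, against 10791, 8913.5 and 11792). With cells of at most 10% mitochondrial UMIs, the difference was 3.75 for Ly6a (adjusted p = 0.0039) and 4.45 for Ly6c1 (7.5e-05). Macrophage and monocyte markers summed to 370.3, 505 and 308 CPM in interferon-high cells, against 118, 150.2 and 29.9 CPM in interferon-low cells, and 2 of the 3 tested were higher, Cd74 and Plac8. Between 3 and 6 of the 12 markers of that list were at 0 UMIs in each group. Microglial markers, 14 genes with at most 1 at 0 in a group, summed to 179.8, 957 and 53.6 CPM in interferon-high cells and 177, 733 and 54.9 CPM in interferon-low cells. Endothelial markers summed to 63.4, 65.6 and 72.7 CPM in interferon-high cells and 64.5, 93.9 and 77.7 CPM in interferon-low cells. T and NK cell markers summed to 15.997, 106 and 10.3 CPM in interferon-high cells, against 4.84, 2.96 and 3.54 CPM in interferon-low cells, and mural markers to 107, 17.0 and 52.1 CPM, against 53.5, 7.91 and 26.7 CPM. Among cells with no UMI of the myeloid, T or NK, endothelial and mural lists, Ly6a still stood at 3.18 (adjusted p = 0.0028), Ly6c1 at 4.37 (0.0004) and Ly6e at 2.87. The heat-shock protein gene Hspb1 rose by 2.98 (adjusted p = 0.00093) and Hspa1b by 1.72 (0.0103), both read after their values were seen. Astrocyte markers were also higher (4 of 11 tested, Aqp4 by 2.00 among them) and oligodendrocyte markers lower (5 of 14 tested, Mog by -1.66 among them). Markers of committed OPCs (3 of 8 tested) and of precursors (2 of 18) were lower as well. The part of heat-shock genes and cell class in the members' differences was not tested.

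The differences were smaller without the cluster highest for Ly6a. With that cluster left out of each tumour, an alternative chosen after seeing the data, the difference was 3.07 for Ly6a (adjusted p = 0.0112), 2.73 for Ly6c1 (0.0067) and 2.49 for Ly6e (0.0063). All 3 were still called, and Lynx1 was not (1.54, adjusted p = 0.156).

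The same cells were then split by Ly6a itself, which is no separate evidence but shows what goes with it. Ly6a-positive cells had at least 1 Ly6a UMI among 2000 (181, 91 and 424 cells), and Ly6a-zero cells had none in their full counts (745, 569 and 1513 cells). Ly6c1 had 182, 186 and 142 CPM in Ly6a-positive cells, against 8.83, 11.4 and 3.10 CPM in Ly6a-zero cells (4.64 ± 0.21, adjusted p = 1.5e-08, edgeR). Ly6e had 739.8, 932 and 763 CPM in Ly6a-positive cells, against 241, 155 and 279.9 CPM in Ly6a-zero cells (1.85 ± 0.16, adjusted p = 7.2e-06). For both genes the 3 positive values lay above all 3 zero values.

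By cells, Ly6c1 was read in 19.9%, 25.3% and 10.4% of cells with a Ly6a UMI among 2000, and in 1.91%, 2.5% and 1.22% of cells without one. Most Ly6a-positive cells thus gave no Ly6c1 UMI at that depth. Ly6e was read in 64.1%, 63.7% and 70.3% of cells with a Ly6a UMI and in 37.7%, 25.3% and 42.7% of cells without. These shares count cells with a UMI at 2000 UMIs, not cells that express the gene.

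Lynx1 had 14.2, 10.8 and 22.0 CPM in Ly6a-positive cells, against 4.96, 2.01 and 12.8 CPM in Ly6a-zero cells (1.16 ± 0.26, adjusted p = 0.0147, edgeR). Its call was lost without tumour 1 (adjusted p = 0.0574), among cells with no UMI of other cell types (0.48, 0.396) and without the cluster highest for Ly6a (0.93, 0.118). The fit among cells with no UMI of other cell types left out tumour 2, which had only 12 such Ly6a-positive cells. Ly6h had 146, 30.3 and 92.3 CPM in Ly6a-positive cells and 121, 30.6 and 54.2 CPM in Ly6a-zero cells, and did not pass (0.42 ± 0.14, adjusted p = 0.0890). Cd59a had 21.4, 46.5 and 3.92 CPM in Ly6a-positive cells and 17.7, 25.5 and 2.39 CPM in Ly6a-zero cells, and did not pass either (0.58 ± 0.20, adjusted p = 0.120).

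Of the other 6 members, 5 passed the filter and 3 rose, where 6.19% of 12011 genes were called, 4.17% higher and 2.01% lower. Of the 36 genes of the type I interferon list, 34 rose and 1 fell, Ifi27 (-0.48, adjusted p = 0.0450). Their median was 1.27, against -0.02 over all genes. All 19 genes tested of the interferon gamma list rose, with a median of 0.80. Bst2 rose by 1.44, Irf7 by 1.33 and B2m by 0.57. Without tumour as a block, Ly6c1 (adjusted p = 0.489), Ly6e (1.00) and Lynx1 (1.00) were not called by edgeR. Hspb1 was higher too (2.15, adjusted p = 1.65e-07). Median mitochondrial shares were 5.27%, 8.53% and 6.53% in Ly6a-positive cells, against 4.69%, 6.09% and 5.13% in Ly6a-zero cells, and macrophage and monocyte markers summed to 367, 530.1 and 314 CPM in Ly6a-positive cells, against 181, 252 and 81.4 CPM in Ly6a-zero cells. Endothelial markers summed to 108, 102 and 74.2 CPM in Ly6a-positive cells, against 63.6, 94.5 and 77.0 CPM in Ly6a-zero cells, and T and NK cell markers to 12.2, 183 and 7.59 CPM, against 8.34, 7.32 and 6.56 CPM. Markers of neural classes moved too, with 5 of 11 astrocyte markers higher, 4 of 14 oligodendrocyte markers lower and 3 of 18 precursor markers lower in Ly6a-positive cells. Their part in the members' differences was not tested. Among cells with no UMI of other cell types, Ly6c1 stood at 4.81 (adjusted p = 9.3e-18) and Ly6e at 1.42 (4.8e-14). Tumour 2 had only 12 such Ly6a-positive cells and was left out of that fit. These values therefore come from tumours 1 and 4 alone, and borrow most of their spread from all genes.

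**Figure D4:**
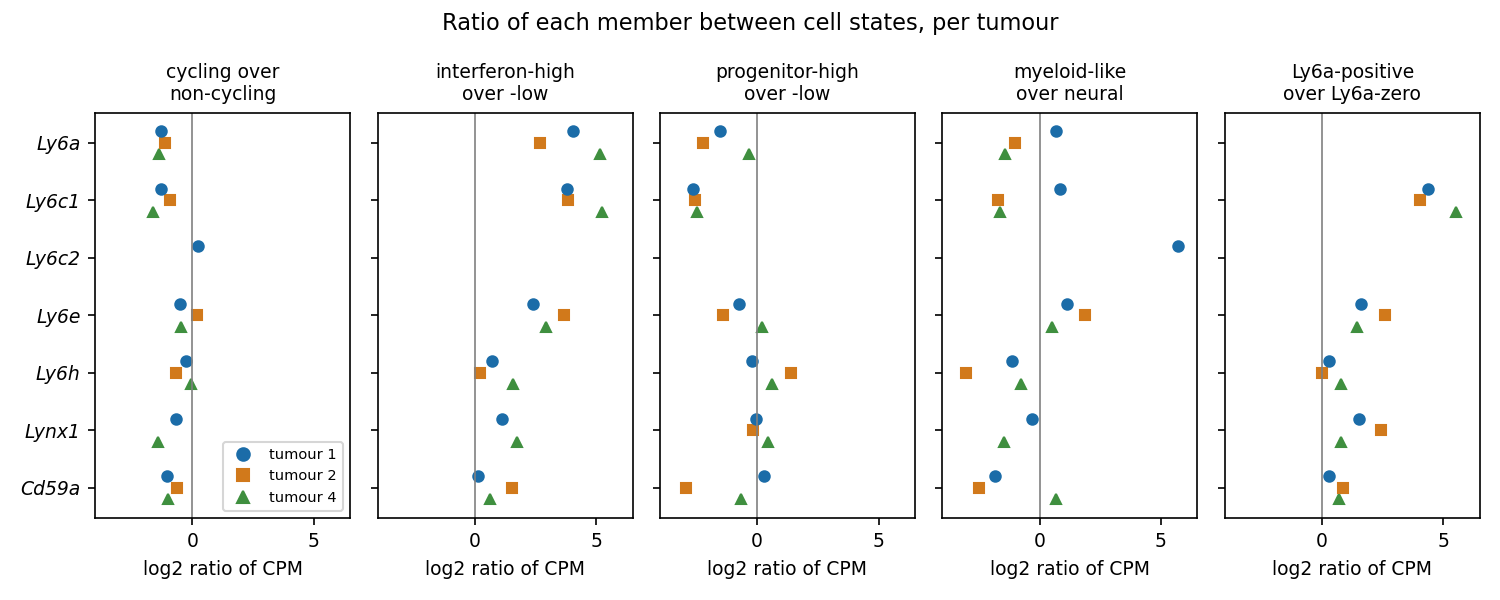
Log2 ratio of CPM for each member between cell states, per tumour: cycling over non-cycling neural cells, interferon-high over interferon-low, progenitor-high over progenitor-low, myeloid-like over non-cycling neural, and Ly6a-positive over Ly6a-zero. A point is left out where either side had 3 UMIs or fewer. The Ly6a and Ly6c1 points lie right of 0 in the interferon panel and left of 0 in the progenitor and cycling panels in all 3 tumours.

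Progenitor state went the other way for Ly6c1. The 25% of non-cycling neural cells with the most UMIs of 18 oligodendrocyte precursor markers were set against the 25% with the fewest. The list holds genes such as the growth factor receptor Pdgfra and the transcription factor Olig2. Ly6c1 had 12.8, 10.8 and 11.01 CPM in progenitor-high cells, against 80.4, 63.8 and 62.2 CPM in progenitor-low cells. The groups were apart by a like factor in each tumour, with log2 ratios of -2.65, -2.57 and -2.497. The fitted difference was -2.66 ± 0.17 (adjusted p = 0.0425, edgeR with tumour as a block). Ly6c1 and Hspb1 were the only genes called among 11499 (0.0174%), both lower. At an unadjusted 0.05 the count was 887, and DESeq2 called 72.

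That call is close to the threshold. It was lost in 7 of 11 alternatives, with adjusted p from 0.0511 with library sizes only to 0.475 among cells with no UMI of other cell types, while the difference stayed between -2.74 and -1.89. Without tumour 1 the adjusted p was 0.146, and without tumour 4 it was 0.283. Without tumour as a block it was 0.356.

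Ly6a had 107, 42.4 and 157 CPM in progenitor-high cells, against 314, 200.7 and 200.1 CPM in progenitor-low cells. It was lower in each tumour but by unequal amounts, and did not pass edgeR's test (-1.44 ± 0.38, adjusted p = 0.638). DESeq2 called it (adjusted p = 0.0249), as did edgeR without tumour 2 (-0.99, adjusted p = 2.4e-10). That last fit holds only tumours 1 and 4, with log2 ratios of -1.55 and -0.35, and borrows most of its spread from all genes. Ly6e had 264, 156 and 430.1 CPM in progenitor-high cells and 439.8, 416 and 371 CPM in progenitor-low cells, with tumour 4 opposite to the others (-0.73, adjusted p = 0.638). Ly6h had 102, 58.2 and 79.7 CPM in progenitor-high cells and 118, 22.1 and 51.8 CPM in progenitor-low cells (0.45, adjusted p = 0.686). Lynx1 had 6.29, 2.53 and 17.7 CPM in progenitor-high cells and 6.56, 2.88 and 13.1 CPM in progenitor-low cells (0.11, adjusted p = 0.918). Cd59a had 21.6, 6.96 and 1.81 CPM in progenitor-high cells and 17.8, 53.8 and 2.84 CPM in progenitor-low cells, a gap mostly in tumour 2 (-1.06, adjusted p = 0.682, and 0.0012 with adjusted p = 0.999 without tumour 2). Ly6c2 had 0, 2 and 0 UMIs in progenitor-high cells and 5, 0 and 0 in progenitor-low cells.

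The interferon lists had median differences of -0.66 (type I) and -0.42 (interferon gamma) in this contrast, against 0.00 over all genes. Per cell, the median UMIs of the type I list were 5, 5 and 16 in progenitor-high cells and 8, 9 and 13 in progenitor-low cells, so tumour 4 ran opposite to the others while its Ly6c1 did not. The progenitor-low cells of tumour 2 were rich in oligodendrocyte markers, with a median of 19 UMIs in progenitor-high and 84.5 in progenitor-low cells. Their part in these differences was not tested.

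Cycling was the contrast from which Ly6a and Ly6c1 had been singled out, so the values are given without a test. Cycling neural cells had at least 5 of 2000 UMIs from 53 cell-cycle genes (1019, 118 and 1014 cells), and non-cycling cells at most 1 (1281, 771 and 2398 cells). Ly6a had 73.3, 59.9 and 66.7 CPM in cycling cells, against 177, 130.2 and 173 CPM in non-cycling cells. Ly6c1 had 14.6, 18.3 and 8.44 CPM in cycling cells, against 35.9, 34.6 and 26.0 CPM in non-cycling cells. For both, every cycling value lay below every non-cycling value. Lynx1 had 4.45, 1.66 and 5.58 CPM in cycling cells, against 7.04, 3.03 and 14.8 CPM in non-cycling cells. Cd59a had 9.19, 17.5 and 1.36 CPM in cycling cells, against 18.8, 27.1 and 2.69 CPM in non-cycling cells. These were lower in each tumour but overlapped between tumours. Ly6h had 99.9, 19.1 and 59.3 CPM in cycling cells and 120.1, 30.4 and 62.1 CPM in non-cycling cells. Ly6e had 238, 315 and 274 CPM in cycling cells and 340.1, 277 and 381 CPM in non-cycling cells, with tumour 2 opposite to the others. Of all 13676 genes 3.41% were called by edgeR, 3.26% higher and 0.154% lower, which is given as background only. Ly6c2 had 16, 2 and 0 UMIs in cycling cells and 12, 4 and 1 in non-cycling cells. Cycling cells held 14966, 7999 and 10999.5 UMIs in the median, against 10831, 8143 and 9146.5 in non-cycling cells. The median UMIs of the type I interferon list among 2000 were 4, 8 and 10 in cycling cells and 6, 6 and 14 in non-cycling cells.

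The lower values in cycling cells were not spread evenly over the interferon score. When cycling and non-cycling cells of a tumour were together cut into 3 equal parts by that score, Ly6a in the highest part had 153, 94.6 and 212 CPM in cycling cells, against 399, 327 and 437 CPM in non-cycling cells. In the middle part it had 61.4, 40.7 and 63.6 CPM in cycling cells and 48.6, 42.1 and 79.7 CPM in non-cycling cells. The intervals there overlapped in tumour 2 alone, with Ly6a higher in cycling cells in tumour 1 and lower in tumour 4. In the lowest part of tumours 1 and 4 it had 33.4 and 18.6 CPM in cycling cells and 33.8 and 23.2 CPM in non-cycling cells. Ly6a was therefore lower in cycling cells in 8 of the 9 parts, but by more than 1.5 times only in the highest part of each tumour and in the lowest of tumour 2, where cycling cells held 1 UMI. Median scores in the highest part were 20, 28 and 37 UMIs in cycling cells and 24, 29 and 43 in non-cycling cells, so the match is incomplete.

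Ly6c1 had 34.2, 22.7 and 31.7 CPM in cycling cells of the highest part, against 83.5, 95.3 and 71.7 CPM in non-cycling cells. It was lower in 5 of 9 parts, among them the highest part of each tumour. Lynx1 was lower in 8 of 9 parts, but those of tumour 2 rest on 0 to 2 UMIs of cycling cells. The median ratio was 0.522, where both sides had enough UMIs for one. Cd59a was lower in 7 of 9, with a median ratio of 0.51. Its parts in tumours 2 and 4 rest on 1 to 13 UMIs of cycling cells. Ly6e was lower in 4 of 9, with a median ratio of 1.01. These are descriptions, since the cells are those from which the pattern was drawn.

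**Figure D5:**
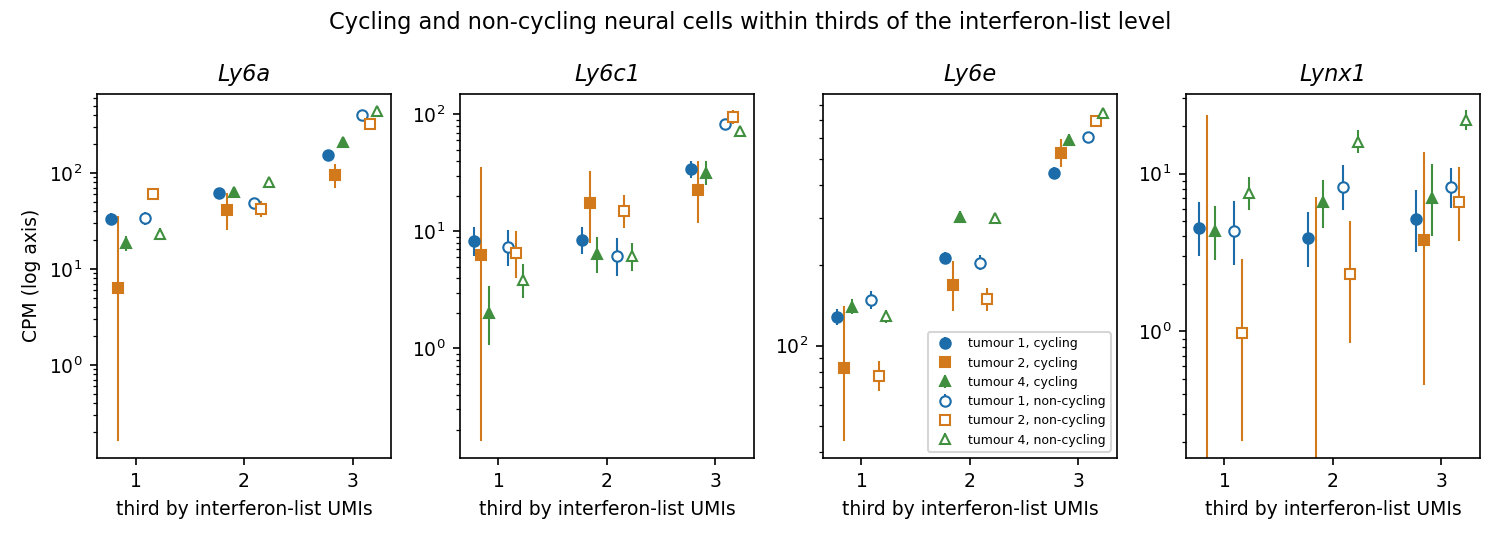
CPM (log axis) of Ly6a, Ly6c1, Ly6e and Lynx1 in cycling (filled, left) and non-cycling (open, right) neural cells, within 3 equal parts of the interferon score in each tumour. Bars are exact 95% Poisson intervals. Filled and open points of Ly6a and Ly6c1 part in the highest of the 3, and those of Lynx1 part in tumour 4 in all 3.

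The genes whose pattern over 45 clusters was most like each member's were named by Pearson's r of log2(CPM + 1) among 11237 genes. The clusters share 3 libraries and differ in depth, so r is a description. For Ly6a they were Gbp8 (0.75), Ifi44 (0.75) and Ly6c1 (0.72). For Ly6c1 they were Hspb1 (0.84), Phf11d (0.77) and Ifit2 (0.75). For Ly6e they were Sp110 (0.92), Lgals3bp (0.88) and Ifi204 (0.86). Gbp8, Ifi44, Ifit2, Sp110 and Ifi204 belong to the interferon-inducible genes. For Ly6c2 they were the T cell genes Cd8a (0.90), Cd8b1 (0.88) and Cd3g (0.87), which rest on the 1 T or NK cell-like cluster. For Ly6h they were Dlgap1 (0.94), Dclk1 (0.93) and Prr36 (0.92), the first a scaffold of synapses and the second a microtubule-binding kinase of neurons. For Lynx1 they were Igtp (0.88), Wnt7b (0.87) and Gnaz (0.86), and for Cd59a Fam213a (0.76), Ghitm (0.75) and Cab39l (0.73). Among members, r was 0.69 for Ly6a and Ly6e, 0.60 for Ly6h and Lynx1, and 0.03 for the near copies Ly6c1 and Ly6c2.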

How the data were processed

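For each tumour the authors deposited a table of UMI counts, whole numbers with genes in rows and cell barcodes in columns, per the file headers. STAR 2.5.1, Cell Ranger 1.3.0 and the mm10 build are named in the submitters' processing notes. The 3′ v2 kit was used, per the labels' protocols. Normalised tables were not used. No source used here says if doublets had been removed by then.

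Cells needed at least 500 genes, at most 20% mitochondrial and at most 10% haemoglobin UMIs. This removed 0, 3 and 0 barcodes by genes, 25, 82 and 247 by mitochondrial share, and 1, 0 and 0 by haemoglobin in tumours 1, 2 and 4. Scrublet called 0, 11 and 0 doublets and was taken not to have worked, so no cell was removed. Cells were clustered per tumour in scanpy 1.11.5 under Python 3.11.15, without the 38 measured genes of the family. The steps were scaling to 10000 UMIs, 2000 variable genes, 30 components, 15 neighbours and Leiden resolution 1. Clusters were named from marker lists, with limits on marker levels set after those levels had been seen. Cell states were read from cells thinned to 2000 UMIs, and levels from the full counts.

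Counts were summed per tumour and state and compared in edgeR 4.0.16 under R 4.3.3. The quasi-likelihood test used TMM scaling, a filter on low counts and the tumour as a block, and p-values were adjusted by Benjamini-Hochberg over all genes. The 2 sides of a comparison come from the same tumour and library, which is where the pairing comes from. Genes that scored a state were left out of its test. The markers that named the myeloid-like clusters stayed in the myeloid-like test and count among its called genes. DESeq2 1.42.0 was an alternative. Ly6c2 mostly failed the filter, and the other 6 members passed. The tests were also run on simulated data, with results not given here. Intervals cover counting error only. The p-values rest on how the differences within tumours vary over these 3 tumours, with spread partly borrowed from all genes.

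The members, the marker and interferon lists and the comparisons were chosen with earlier results of these data known. Named genes are the members, reference genes of the lists and the 3 genes most like each member. The labels name no batches. Upstream sequences were read for 3 members, as the reference held none for the others.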

Additional observations from a re-analysis of the deposited data

How the results depend on the processing

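Of 280 repeats of the members' tests, 248 kept their call or lack of one, 11 gained a call and 21 lost one. No difference changed sign where the main or the repeated fit called it. Uncalled differences could change sign, as that of Cd59a between progenitor states did without tumour 2. The counts of genes called moved more. Without tumour as a block, so unpaired, edgeR called 120 genes for cycling (467 with it), 1 for interferon (458), 0 for progenitor state (2; 232 at unadjusted p under 0.05), 654 for myeloid-like cells (1196) and 0 for Ly6a (743; 231 unadjusted). With no filter on low counts the numbers were 1287 for interferon, 49 for progenitor state, 1968 for myeloid-like cells and 1430 for Ly6a, where 654 were higher and 776 lower against 501 and 242. DESeq2 called 792 for cycling (601 higher, 191 lower, against 446 and 21), 72 for progenitor state, 1902 for myeloid-like cells (1434 higher, 468 lower, against 1112 and 84) and 369 for Ly6a (325 higher, 44 lower). Among cells with no UMI of other cell types 3116 were called for cycling, where tumour 2 was left out for having 13 cells, and with at least 10 cycling UMIs 726. For progenitor state 0 were called by edgeR with library sizes only (978 unadjusted), with at most 10% mitochondrial UMIs (786), with no UMI of other cell types (351) and with the upper and lower 50% of cells (756). Leaving out 1 tumour gave 404 to 4094 genes for cycling, 223 to 1270 for interferon, 0 to 537 for progenitor state, 755 to 2881 for myeloid-like cells and 464 to 1058 for Ly6a, and each highest count was without tumour 2. Such fits hold 2 tumours and borrow most of their spread from all genes. Without the cluster highest for Ly6a, chosen after seeing the data, 126 were called for interferon and 264 for Ly6a. The mean level of Ly6a was 131.7 CPM in neural cells and 156.6 CPM as a mean over cells, against 136.5 CPM. At Leiden resolution 0.5, which changes the clusters that are named, OPC-like cells had 31.5 CPM of Ly6c1 (21.0 at resolution 1) and 387 CPM of Ly6e (298). At resolutions 0.5 and 2, oligodendrocyte-like cells had 135 and 101 CPM of Ly6a (185 at 1), 31.3 and 27.4 CPM of Ly6c1 (43.7), and 0.0987 and 0.278 CPM of Ly6c2 (0). At 2 they had 279 CPM of Ly6e (356). Where no construction is named, the cause was not tested. Low counts limit Ly6c2 throughout and Lynx1 in tumour 2, and the 3 tumours limit every test.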

Other observations

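Of 37 further genes of the family, 31 had a row, and 7 of those had no UMI in any tumour. Plaur, the urokinase receptor that localises proteolysis at the cell surface, was also read in the myeloid-like cells. It had 62.9, 107 and 84.3 CPM in myeloid-like cells of tumours 1, 2 and 4, against 12.5, 21.2 and 10.3 CPM in non-cycling neural cells (log2 difference 3.00 ± 0.26, adjusted p = 0.0020, edgeR). Every myeloid-like value lay above every neural value. Ly6k had 11, 26 and 12 UMIs in myeloid-like cells and 0, 1 and 0 in the many more non-cycling neural cells (adjusted p = 0.0028). Ly6i had 18, 29 and 1 UMIs in myeloid-like cells and 10, 28 and 9 in non-cycling neural cells (2.70 ± 0.50, adjusted p = 0.0254), nearly all from tumours 1 and 2. Of the 5 genes of the set tested there, 3 rose and none fell, where 8.92% of all genes tested were called higher and 0.674% lower.

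Lypd1 and Lypd6, which like Lynx1 are known as modulators of nicotinic receptors, were read in precursor-like cells, and Lypd6 at like levels in other neural cells. Lypd6 had 31.4, 6.67 and 9.20 CPM in the whole tumours. In tumour 1 it had 33.8 CPM in OPC-like, 28.9 CPM in unnamed neural and 24.9 CPM in astrocyte-like cells. Lypd1 had 8.78, 16.2 and 11.6 CPM in the whole tumours and 53.6 CPM in OPC-like cells of tumour 2. Ly6g6f had 27.03 CPM in the whole of tumour 2, against 0.149 and 1.42 CPM in tumours 1 and 4. It had 57.7 CPM in the oligodendrocyte-like cells and 78.0 CPM in the unnamed neural cells of tumour 2.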
